A study of Mus musculus with 8 samples.

Results

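Integrins, laminins and the proteins that join them in the basement membrane were followed in TEC71, an immortalized line derived from medullary epithelial cells of the mouse thymus. The set holds every gene of the array whose symbol names an integrin alpha or beta chain or a laminin alpha, beta or gamma chain, together with Nid1, Nid2, Hspg2, Agrn and Dag1; partner genes that merely bind an integrin were left out. It comprised 43 of the 22911 gene symbols on the array, 27 integrins, 11 laminins and 5 linkers, read by 68 probes. RNA was hybridized to 8 one-colour Agilent mouse arrays in 3 groups. Knock-in clone 1 (labelled #1, 3 arrays) and knock-in clone 3 (labelled #3, 2 arrays) carry the T1211A mutation in Gtf2i, which encodes the transcription factor TFII-I, and each is a single clone of the edited line. The control (3 arrays) consists of TEC71 cells transfected with the Cas9 nickase and one guide RNA. All groups are of the same line, and the medium stated in the labels is the same for all samples. The labels do not say whether the arrays of a group came from separate cultures, so p-values measure the spread between these arrays only.

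Integrins are receptors made of 1 alpha and 1 beta chain that span the cell membrane, bind matrix proteins outside the cell and connect through adaptor proteins to the actin or keratin skeleton inside it. Laminins are cross-shaped trimers of 1 alpha, 1 beta and 1 gamma chain, and they polymerize into the sheet on which epithelial cells rest. Nidogens and perlecan tie that sheet to the collagen IV network, and agrin and dystroglycan link laminin to the cell surface. In the thymus, epithelial cells rest on such a membrane at the capsule and around vessels, and integrins also serve as the receptors with which developing T cells attach to the epithelium.

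Levels below are log2 processed signals after subtraction of each array's own 75th percentile, and a difference of 1 is a 2-fold change. A gene is given by its brightest probe, levels of different genes cannot be set against each other, and only genes detected above background throughout 1 group or more were tested. Of the 43 genes, 26 passed that filter (15 integrins, 7 laminins and 4 linkers), 24 of them on all 8 arrays. Of all probes, 55.3% to 59.3% exceeded background per array, and none was saturated. The 8 arrays share 1 slide. Row 1 holds the 3 controls with the first clone 1 array, on which the brightest spike-in read 2797, against 17164 to 30390 on the other 7. Row 2 holds the other knock-in arrays, so a fit with the slide row as a block rests its clone against control contrast on that 1 array. The point mutation itself cannot be read from expression probes. All 9 epithelial markers examined were above background on all 8 arrays. Of 7 markers of medullary thymic epithelium 3 were, Aire was above background on 2 clone 1, no clone 3 and 1 control arrays, and Fezf2, Ccl21a and Cd40 were above background on none. The summed linear level of these 7 markers, in multiples of the 75th percentile, was 1.36 to 1.66 in clone 1 and 1.28 to 1.45 in clone 3, against 2.22 to 2.68 in the control. Cd80, one of them, differed by -2.31 and -2.86. Of the 7, 3 were tested and 1 passed, as lower in both clones, where 12.2% of all tested were. The median difference of the 3 was -0.06 and -0.45. The summed level of 4 regulators of thymic epithelium went the other way. It was 1.66 to 2.07 in clone 1 and 1.56 to 1.82 in clone 3, against 1.13 to 1.42 in the control. Of 3 regulators tested, 1 was higher in both clones, where 11.3% of all tested were, and 0 were with the slide row as a block. The median difference of the 3 was 0.20 in clone 1 and -0.21 in clone 3. The part of these shifts in the results below was not tested, and fewer cells of a type and less RNA per cell cannot be told apart.

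The RefSeq table of promoters (GRCm38.p6) held 28 of the 43 genes in 33 windows, each running from 250 bases before to 50 bases after a transcript start. The windows below belong to the changed laminin beta chains, to the integrin beta chain that was higher in both clones, and to Nid1, which was above background in clone 1 only. Capitals mark E-box letters (CANNTG, the same on both strands), a class of element TFII-I is known to bind, and GC-box letters (GGGCGG, or CCGCCC on the other strand), and no 2 matches overlap in these windows.
Lamb3: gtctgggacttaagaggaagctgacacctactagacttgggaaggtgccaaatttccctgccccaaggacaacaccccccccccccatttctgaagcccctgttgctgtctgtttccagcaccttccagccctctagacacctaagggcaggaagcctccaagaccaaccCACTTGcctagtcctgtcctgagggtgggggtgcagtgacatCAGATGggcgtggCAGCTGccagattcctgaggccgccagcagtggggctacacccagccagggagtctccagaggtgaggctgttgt
Lamb1: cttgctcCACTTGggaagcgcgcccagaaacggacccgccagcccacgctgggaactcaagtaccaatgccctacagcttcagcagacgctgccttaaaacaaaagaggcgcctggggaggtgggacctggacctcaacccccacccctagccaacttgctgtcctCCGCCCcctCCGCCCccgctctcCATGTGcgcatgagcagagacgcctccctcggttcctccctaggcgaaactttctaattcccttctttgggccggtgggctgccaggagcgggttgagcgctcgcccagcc
Itgb7: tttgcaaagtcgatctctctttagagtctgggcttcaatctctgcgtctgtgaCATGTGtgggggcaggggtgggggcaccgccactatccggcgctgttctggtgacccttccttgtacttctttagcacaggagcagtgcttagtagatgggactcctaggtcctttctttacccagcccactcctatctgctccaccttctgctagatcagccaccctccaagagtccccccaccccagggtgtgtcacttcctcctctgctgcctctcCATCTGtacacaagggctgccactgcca
Nid1: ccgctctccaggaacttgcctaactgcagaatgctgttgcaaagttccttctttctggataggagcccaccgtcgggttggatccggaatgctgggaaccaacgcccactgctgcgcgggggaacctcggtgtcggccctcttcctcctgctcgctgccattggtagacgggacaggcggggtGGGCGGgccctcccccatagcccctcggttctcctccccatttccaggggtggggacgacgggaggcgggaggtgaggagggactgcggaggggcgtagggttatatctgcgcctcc
The Lamb3 window (chr1:193301744-193302043, plus strand) is the upstream one of its 2 windows and held 3 E-boxes, starting at -80, -38 and -25 from the transcript start, and no GC-box. The Lamb1 window (chr12:31265043-31265342, plus strand) held 2 E-boxes, at -243 and -61, and 2 GC-boxes, at -84 and -75. The Itgb7 window (chr15:102231886-102232185, minus strand) held 2 E-boxes, at -197 and 23, and no GC-box. The Nid1 window (chr13:13437352-13437651, plus strand) held 1 GC-box, at -67, and no E-box. None of these 4 windows held TATAAA or TGACTCA on either strand, the TATA and AP-1 letters that were also searched. E-box letters occurred in 26 of the 33 windows of the set (78.8%), beside 72.3% of all 32851 promoters in the table. GC-box letters occurred in 18 (54.5%), beside 35.7% of all promoters; TATAAA in 0, beside 13.6%; and TGACTCA in 2 (6.06%), beside 5.2%. A match of letters is a description of the window and not evidence of binding.

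Against the control, 9 of the 26 tested genes passed an adjusted p of 0.05 in clone 1 (34.6%), 4 higher and 5 lower, where 31.1% of all 25353 tested genes and transcripts passed, 14.7% higher and 16.5% lower. In clone 3, 9 passed (34.6%), 2 higher and 7 lower, where 30.2% of all tested passed, 13.3% higher and 17% lower. With each array centred on its median instead, clone 1 had 4 genes higher with 3 lower, and clone 3 had 2 higher with 4 lower. Among changes of at least 2-fold the counts were 5 in clone 1 (19.2%), beside 8.76% of all tested, and 3 in clone 3, beside 10.3%. Counting both directions together in this fit, the shares passing were near those of the whole array, apart from the 2-fold count in clone 1. By direction, the clone 3 calls leaned to lower genes, 7 against 2. The clone 1 counts, also that of 2-fold changes, include Nid1. That gene entered the test through clone 1 alone, with control readings at background. Itga7 and Itgb7 were higher in both clones, and Lama3, Lamb3, Lamb1 and Itgav were among those lower in both. In all, 7 genes passed in both clones with the same sign, 26.9% of those tested, beside 23.5% of all tested, with 11.3% higher in both and 12.2% lower in both. With the slide row as a block, 4 genes still passed in both clones, Itga7, Itgb7 and Lama3 among them, 15.4% of the set beside 7.76% of all tested. Both comparisons use the same 3 control arrays, so the clones are not independent repeats of each other. The median log2 difference of the 26 genes was 0.04 in clone 1 and 0.02 in clone 3, and that of all tested was -0.05 and -0.04. For the mean of both clones against the control, 11 genes passed (42.3%), Nid1 among them, beside 36.5% of all tested.

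**Figure D1:**
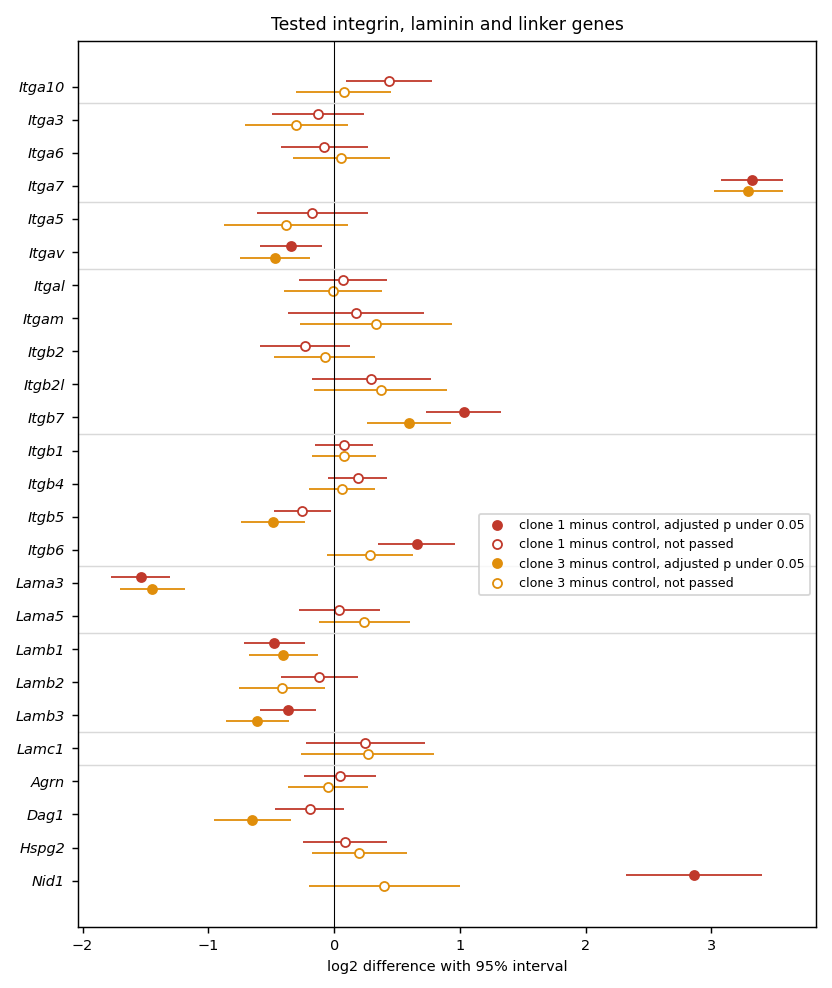
Log2 difference of tested genes of the set, clone 1 minus control and clone 3 minus control, with 95% intervals; filled points passed an adjusted p of 0.05 and open points did not, and lines part the roles. Itga7 lies above 3 in both clones, Lama3 lies below -1 in both, and for Nid1, at background in the control, the fitted value is not a measure of size.

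Laminin chains of epithelial anchoring were lower in the knock-in clones. Lama3 and Lamb3 encode the alpha 3 and beta 3 chains found in the laminin to which hemidesmosomes attach, and both passed the test as lower in both clones. Lama3 read 1.68, 1.70 and 1.73 in clone 1 and 1.89 and 1.71 in clone 3, against 3.23, 3.33 and 3.18 in the control. All 5 knock-in arrays lay below all 3 control arrays, with the 2 clones overlapping. The difference was -1.54 (SE 0.102, adjusted p = 1.35e-05) in clone 1 and -1.44 (SE 0.114, adjusted p = 4.76e-05) in clone 3, a level 2.91-fold and 2.72-fold lower, and the second Lama3 probe differed by -1.50 and -1.53. Within slide row 1 alone, where 1 clone 1 array stands beside the 3 controls, the difference was -1.56 (adjusted p = 0.00718).

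The beta 3 chain was lower as well. Lamb3 read 4.15, 4.11 and 4.11 in clone 1 and 3.82 and 3.94 in clone 3, against 4.50, 4.56 and 4.42 in the control. Every knock-in array lay below every control array, and the clone 3 arrays lay below those of clone 1. The differences were -0.37 (SE 0.097, adjusted p = 0.0204) in clone 1 and -0.61 (SE 0.109, adjusted p = 0.00374) in clone 3, and the second Lamb3 probe gave -0.51 and -0.86. With the slide row as a block the values were -0.34 and -0.56 and neither passed (adjusted p = 0.162 and 0.127). The clone 1 call held under 9 of 17 alternatives and was also lost with median scaling, with no filter, without control array 1 or 2 or without clone 1 array 2 or 3, with differences between -0.41 and -0.34 over all arrays left out in turn.

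Among the laminins of other trimers, Lamb1, the beta 1 chain found in most basement membranes, was lower in both clones. It read 5.71, 5.80 and 5.83 in clone 1 and 5.96 and 5.73 in clone 3, against 6.32, 6.19 and 6.24 in the control, with no overlap between knock-in and control arrays. The differences were -0.47 (adjusted p = 0.0103) and -0.40 (adjusted p = 0.0338). Of its other probes, one differed by -0.31 and -0.42, the first of which did not pass, and the other by -0.50 and -0.94. With the row as a block the values were -0.54 and -0.51 and neither passed (adjusted p = 0.0532 and 0.191). The clone 3 call held under 6 of 16 alternatives. It was lost with normexp correction (adjusted p = 0.0539), quantile or median scaling and no filter, and without any 1 control array, without clone 1 array 2 or without clone 3 array 2, with differences between -0.52 and -0.29 over the arrays left out. Lama5, Lamb2 and Lamc1 did not pass in either clone. Lama5, the alpha chain of the common epithelial laminins, averaged 5.08 ± 0.25 over the 3 clone 1 arrays and 5.28 ± 0.04 over the 2 clone 3 arrays, against 5.04 ± 0.11 over the 3 control arrays (mean ± SD). Its difference was 0.04 (95% interval -0.28 to 0.36) in clone 1 and 0.24 (-0.12 to 0.60) in clone 3. For Lamc1, the gamma 1 chain that pairs with it, the differences were 0.25 (-0.22 to 0.72) and 0.27 (-0.26 to 0.80). Lamb2, the beta chain of synaptic and kidney basement membranes, differed by -0.12 (-0.42 to 0.19) in clone 1 and by -0.41 (-0.75 to -0.07, adjusted p = 0.0698) in clone 3.

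**Figure D2:**
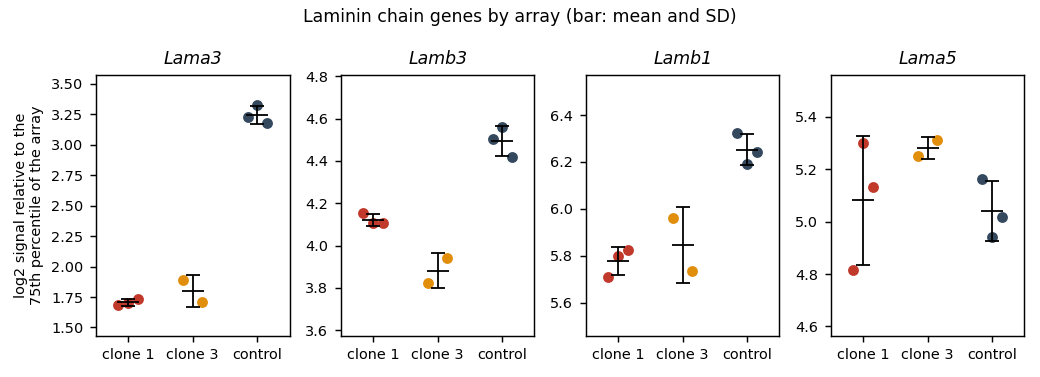
Log2 level of Lama3, Lamb3, Lamb1 and Lama5 per array, set against that array's 75th percentile, for clone 1, clone 3 and the control from left to right; points are arrays, and bars give the mean and SD of each group. For Lama3, Lamb3 and Lamb1 all knock-in points lie below all control points, with the widest gap for Lama3 (-1.54 in clone 1 and -1.44 in clone 3), and for Lama5 the clone 1 and control points overlap.

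Of the other chains, Lama2, the muscle laminin alpha chain, was above background on 2 clone 1 arrays, 1 clone 3 array and no control array, and Lamc3 on 0, 0 and 2 arrays. Neither was tested. Lama1 and Lama4 were above background on no array.

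The largest change of the set was in a laminin receptor. Itga7 encodes the integrin alpha 7 chain, which pairs with beta 1 and is best known as the laminin receptor of skeletal muscle. It read 1.31, 1.41 and 1.33 in clone 1 and 1.19 and 1.46 in clone 3, against -1.96, -2.01 and -1.95 in the control. The 2 clones overlapped and every knock-in array lay far above every control array. The difference was 3.32 (SE 0.107, adjusted p = 2.47e-07) in clone 1 and 3.29 (SE 0.119, adjusted p = 6.18e-07) in clone 3, a level 9.99-fold and 9.81-fold higher. A second Itga7 probe was above background on the 5 knock-in arrays and on no control array. Itga7 passed in both clones under each alternative that was run, with differences in clone 1 between 2.61 and 3.69. The lower of these came with normexp background correction and the higher with the mean of its probes.

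The other alpha chains that bind laminin, both widely made in epithelia, did not pass. Itga3, whose product forms the alpha 3 beta 1 receptor, differed by -0.13 (95% interval -0.49 to 0.24) in clone 1 and -0.30 (-0.71 to 0.11) in clone 3. Itga6, whose product pairs with beta 4 in hemidesmosomes, differed by -0.08 (-0.43 to 0.27) and 0.06 (-0.33 to 0.44). Their beta partners did not pass either: Itgb1 differed by 0.08 (-0.15 to 0.31) and 0.08 (-0.18 to 0.34), and Itgb4 by 0.19 (-0.05 to 0.42) and 0.06 (-0.20 to 0.32). Of the chains that bind collagen, only Itga10 was tested, and its 2 probes disagreed. The probe brighter over all 8 arrays differed by 0.43 in clone 1 and 0.08 in clone 3 without passing. The other differed by -0.57 (adjusted p = 0.0073) and -1.46 (adjusted p = 0.000108), so no direction is given for this gene. On the control arrays that other probe was the brighter, at -2.32, -2.07 and -2.09 against -2.83, -2.65 and -2.35. The choice of probe thus depended on the knock-in arrays. Itga1, Itga2 and Itga11 were above background on no array.

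Alpha v is one of the integrin alpha chains whose receptors bind the RGD sequence, found in fibronectin, vitronectin and the latent form of TGF-beta. Itgav read 3.81, 3.97 and 4.01 in clone 1 and 3.91 and 3.69 in clone 3, against 4.30, 4.26 and 4.26 in the control, and no knock-in array reached the control range. The differences were -0.34 (adjusted p = 0.0431) and -0.47 (adjusted p = 0.0195). Both calls were lost with median scaling and with no filter, and the clone 1 call with normexp too. The clone 1 call was lost when any 1 control or clone 1 array was left out, the clone 3 call without control array 1 or clone 3 array 2, and both with the row as a block (-0.46 and -0.65, adjusted p = 0.0786 and 0.0984). Itgb5, a beta partner of alpha v, read 3.90, 3.92 and 3.86 in clone 1 and 3.69 and 3.63 in clone 3, against 4.04, 4.21 and 4.19 in the control. It passed in clone 3 (-0.49, adjusted p = 0.0113) and not in clone 1 (-0.25, adjusted p = 0.0868). The clone 3 call was lost with median scaling, no filter, without clone 3 array 2 and with the row block (adjusted p = 0.195), and the difference between the clones was -0.23 (95% interval -0.49 to 0.02).

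Itgb6, the epithelial partner of alpha v known for activating TGF-beta, had the opposite sign. It read 0.59, 0.56 and 0.43 in clone 1 and 0.14 and 0.18 in clone 3, against 0.03, -0.01 and -0.39 in the control. The clone 3 arrays lay between the clone 1 and the control arrays. The difference passed in clone 1 (0.66, adjusted p = 0.00642) and not in clone 3 (0.29, adjusted p = 0.187), whereas the second probe passed in both, at 0.55 (adjusted p = 0.0233) and 0.52 (adjusted p = 0.0471). Clone 3 differed from clone 1 by -0.37 without passing (adjusted p = 0.436). Within slide row 1 alone the clone 1 value was 0.72 and did not pass (adjusted p = 0.111). Itga5, the fibronectin receptor chain, differed by -0.17 (95% interval -0.61 to 0.27) in clone 1 and -0.38 (-0.88 to 0.11) in clone 3. Itgb3, which pairs with alpha v in platelets and bone, was above background on no clone 1 array, 1 clone 3 array and 2 control arrays and was not tested, and Itga8 and Itgb8 were above background on no array.

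**Figure D3:**
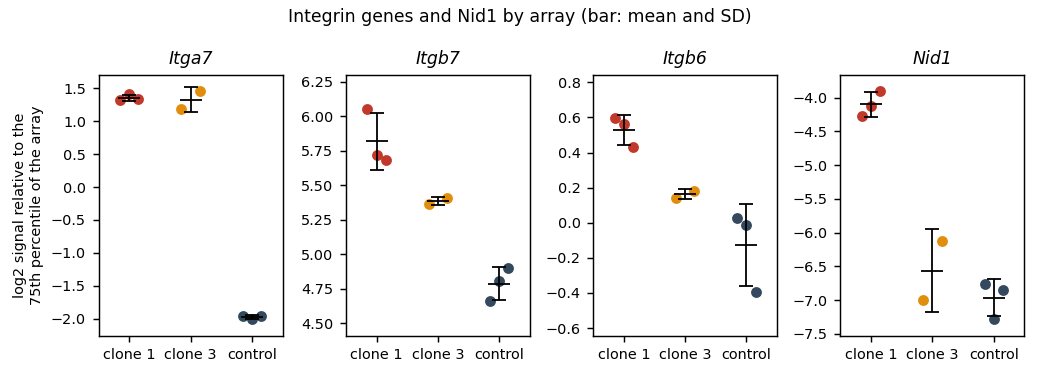
Log2 level of Itga7, Itgb7, Itgb6 and Nid1 per array, set against that array's 75th percentile, for clone 1, clone 3 and the control from left to right; points are arrays, and bars give the mean and SD of each group. Itga7, Itgb7 and Itgb6 lie higher on all 5 knock-in arrays than on any control array, and Nid1 does so on the 3 clone 1 arrays, the others being at background.

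Itgb7 encodes the beta 7 chain, which pairs with alpha 4 on lymphocytes homing to the gut and with alpha E on lymphocytes that bind epithelial cadherin. It read 6.05, 5.72 and 5.68 in clone 1 and 5.37 and 5.41 in clone 3, against 4.66, 4.81 and 4.90 in the control. The 3 groups did not overlap, with clone 1 highest and the control lowest. The difference was 1.03 (SE 0.131, adjusted p = 0.000556) in clone 1, a level 2.04-fold higher, and 0.60 (SE 0.146, adjusted p = 0.0156) in clone 3. Clone 3 differed from clone 1 by -0.43 (95% interval -0.77 to -0.10) without passing the adjusted threshold (adjusted p = 0.365). Without control array 1, or without either clone 3 array, the clone 3 value ran no lower than 0.53 but the call was lost, as it was with no filter (adjusted p = 0.0607). With the row as a block the differences were 1.27 (adjusted p = 0.00185) in clone 1 and 0.95 (adjusted p = 0.0324) in clone 3.

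Both alpha partners of beta 7 were at the edge of detection: Itga4 was above background on 1 clone 1 array and no other, and Itgae on 1 clone 1, 1 clone 3 and 2 control arrays. Of the other leukocyte chains, Itgal, Itgam, Itgb2 and Itgb2l were tested and none passed, with differences of -0.23 to 0.30 in clone 1 and -0.08 to 0.37 in clone 3, and Itgad and Itgax were above background on no array. Itga2b, the platelet alpha chain, was above background on 2 clone 1, 1 clone 3 and 1 control arrays, and Itga9 on none. Ptprc, which encodes the pan-leukocyte antigen CD45, was above background on no clone 1 or clone 3 array and on 1 control array, and Cd3g, Cd8a and Lyz2 on none. The summed linear level of 10 leukocyte markers, in multiples of the 75th percentile, was 7.61 to 9.56 in clone 1 and 7.02 to 8.31 in clone 3, against 5.78 to 6.83 in the control. Of these markers 6 were above background on all 8 arrays, and Cd68 was higher in both clones (1.36 and 0.66), with the clone 3 call lost under the row block (adjusted p = 0.12). The other 5 tested markers passed in neither clone, and the median difference of the 6 was 0.16 in clone 1 and 0.27 in clone 3. The part of these markers in the Itgb7 result was not tested.

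Among the linkers, Nid1 was above background in clone 1 only. Nid1 encodes nidogen-1, a bridge between laminin and collagen IV. It read -4.27, -4.13 and -3.91 in clone 1 and -7.00 and -6.13 in clone 3, against -6.76, -7.28 and -6.85 in the control. It was well above background on the 3 clone 1 arrays and on no other array, so only lower limits of its fold can be given. It was at least 1.84-fold higher in clone 1 than in the control (adjusted p = 4.85e-05) and at least 1.71-fold higher in clone 1 than in clone 3 (adjusted p = 0.0174), where the lowest signal called above background on each array, between -5.45 and -4.56, stands in for lower values. These p-values come from fitted values that use readings at background, and Nid1 entered the test through clone 1 alone, so they do not measure the size of the difference. The limits depend on the stand-in. On control array 2, Lama2 read -4.97 without being called above background, where the lowest called signal was -5.26. The same holds for the limits of other genes given below. No other gene of the set passed in clone 3 against clone 1, a comparison that 0.0749% of all tested passed, and nothing is read from Nid1 beside that share. A second Nid1 probe was at background on all 8 arrays. The difference between the clones no longer passed without control array 3 or without any 1 clone 1 array, under the row block (adjusted p = 0.068) or within row 2 (adjusted p = 0.322). With normexp correction neither that difference (-0.29) nor the one between clone 1 and the control (0.34) passed.

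Dag1, which encodes both dystroglycan subunits, read 4.37, 4.29 and 4.03 in clone 1 and 3.85 and 3.70 in clone 3, against 4.43, 4.46 and 4.39 in the control. It passed in clone 3 (-0.65, adjusted p = 0.00715) and not in clone 1 (-0.20, adjusted p = 0.262), and clone 3 minus clone 1 was -0.45 (adjusted p = 0.315), which did not pass. The clone 3 call was lost without clone 3 array 2 and with the row block (-0.44, adjusted p = 0.277). Hspg2, the perlecan gene, differed by 0.09 (95% interval -0.25 to 0.42) in clone 1 and 0.20 (-0.17 to 0.58) in clone 3. Agrn, the agrin gene, differed by 0.04 (-0.24 to 0.33) and -0.05 (-0.37 to 0.27). Nid2 was above background on no array. For 15 genes, Itga10 among them, the brightest probe passed in neither clone. Their differences ran from -0.23 to 0.43 in clone 1, with interval bounds from -0.61 to 0.77. In clone 3 they ran from -0.41 to 0.37, with bounds from -0.88 to 0.94.

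**Figure D4:**
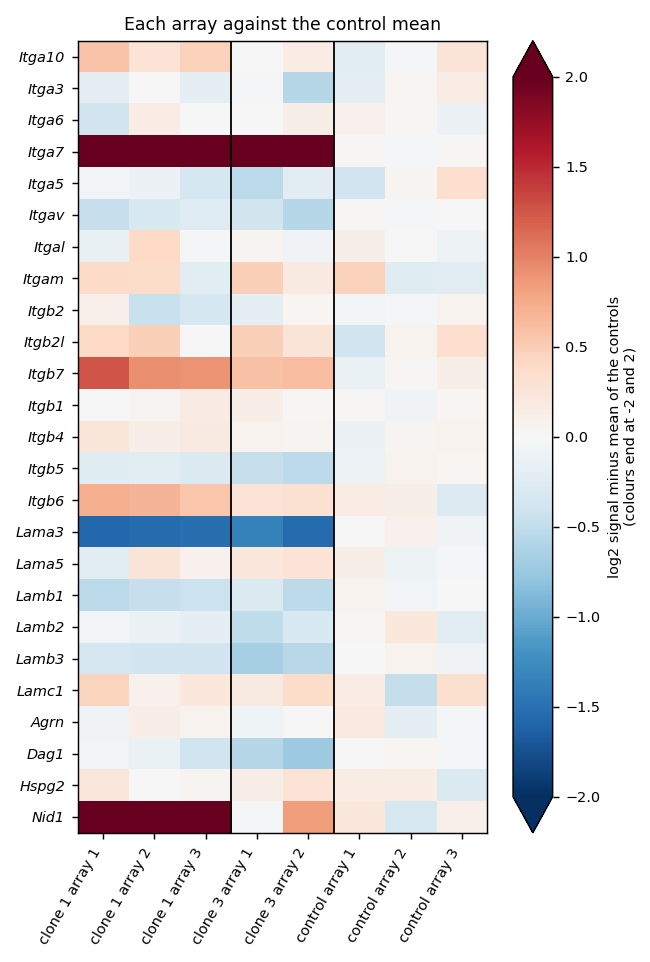
Level of tested genes of the set on each of the 8 arrays as the difference from that gene's control mean on the log2 scale, with clone 1 and clone 3 arrays left of the control arrays. The Itga7 cells stand out on all 5 knock-in arrays, the Nid1 cells on the 3 clone 1 arrays only, and Lama3 is low on all 5 knock-in arrays.

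The genes around the set moved in both directions, and the counts below stand beside 11.3% of all tested higher and 12.2% lower in both clones, and 7.76% passing in both under the row block. The lists were chosen with earlier results of these data known, so their shares are descriptions and not tests. Adhesion adaptors are here proteins that couple integrins to actin, listed together with kinases such as Src and with other integrin partners. Of 35 tested members, 13 were higher in both clones and 2 lower (42.9% in all). Clone 1 had 16 higher with 2 lower, clone 3 had 14 higher with 2 lower, and the median difference was 0.28 and 0.24. With the row as a block 3 were higher and 1 lower in both clones (11.4% in all). Fermt2, the kindlin that helps talin to activate integrins, differed by 1.21 (adjusted p = 0.000138) and 1.32 (adjusted p = 0.000196). Lims2, an adaptor of the integrin-linked kinase, was above background on the knock-in arrays and on no control array, at least 5.58-fold higher in clone 1 and 2.89-fold higher in clone 3. Tns4, an epithelial tensin, differed by -2.74 (adjusted p = 1.18e-06) and -2.50 (adjusted p = 4.83e-06).

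Other basement membrane components had 4 of 17 tested members higher and 6 lower in both clones (58.8% in all), with 2 and 4 under the row block (35.3%) and medians of -0.20 in clone 1 and -0.13 in clone 3. Col4a5, a minor collagen IV chain, differed by 2.36 (adjusted p = 9.39e-07) in clone 1 and 2.14 (adjusted p = 3.97e-06) in clone 3. Col4a3 (1.52 and 1.51) and Col4a4 (0.98 and 0.96) were also higher in both clones. The clone 3 call of Col4a4 was lost under the row block (adjusted p = 0.059). Col4a1 (-0.20 and 0.08) and Col4a2 (-0.16 and -0.06), which encode the common collagen IV chains, did not pass. Apart from Col4a5, these collagen IV genes were named after their values were seen. Npnt, the nephronectin gene, was at background in the control and at least 2.80-fold higher in clone 1 and 2.21-fold higher in clone 3. Its clone 3 call was lost under the row block (adjusted p = 0.0978). Npnt and Lims2 entered the test through the knock-in arrays alone, with control readings at background. Their calls, counted above as higher, do not measure the size of the difference. Smoc2, counted among the lower, was above background on the 3 control arrays, 1 clone 1 array and no clone 3 array. The same limit holds for its calls. Fbln1, a fibulin, fell by 2.46 and 2.66 on the log2 scale. Col17a1 and Col7a1, named after their values were seen, encode the transmembrane collagen of hemidesmosomes and the anchoring fibril collagen, which adjoin the laminin that holds the Lama3 and Lamb3 chains. Col17a1 differed by -1.71 (adjusted p = 5.58e-06) and -1.75 (adjusted p = 1.19e-05), and Col7a1 by -1.42 (adjusted p = 0.000508) and -1.94 (adjusted p = 0.000197).

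Of 16 tested hemidesmosome components, tetraspanins and other matrix receptors, 3 were higher and 2 lower in both clones (31.2% in all), and under the row block 0 and 1 (6.25%). Krt5, a basal keratin whose filaments attach to hemidesmosomes, differed by -1.32 (adjusted p = 0.000608) and -1.13 (adjusted p = 0.00287). Ddr1, a collagen receptor kinase, differed by 1.25 and 0.86, and Sdc4, a syndecan of focal adhesions, by 0.98 and 0.81, with both clone 3 calls lost under the row block (adjusted p = 0.0628 and 0.0667). The summed linear level of the 9 epithelial markers, a list that holds Krt5, was 352 to 403 in clone 1 and 373 to 417 in clone 3, against 393 to 510 in the control, and of these 9 markers 2 were higher and 2 lower in both clones, also under the row block. Epcam differed by -1.10 and -1.01, Krt19 by 0.58 and 1.08 and Cldn4 by 1.52 and 1.17, and the list's median difference was -0.06 and -0.04. The part of these markers in the laminin and keratin results was not tested.

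Soluble and cell-borne ligands of integrins had 2 of 16 tested members higher and 5 lower in both clones (43.8% in all), and 1 and 2 under the row block (18.8%). Postn, counted among the lower in both fits, entered the test through the control arrays alone. It was above background on no knock-in array, so its calls do not measure the size of the difference. Thbs2, a thrombospondin, differed by 2.57 (adjusted p = 7.08e-06) and 2.73 (adjusted p = 1.19e-05). Tgfbi, a matrix protein induced by TGF-beta, differed by -2.88 (adjusted p = 1.31e-06) and -2.58 (adjusted p = 5.8e-06), and Tnc, the tenascin-C gene, by -1.89 and -1.41. The Tnc value in clone 3 did not pass under the row block (adjusted p = 0.054). Fibroblasts also make such proteins: the summed level of 8 fibroblast markers was 0.462 to 0.62 in clone 1 and 0.468 to 0.541 in clone 3, against 0.956 to 1.21 in the control, with Pdgfrb, Dcn, Lum, Thy1 and Fap above background on no array. The marker list shares Col1a1 and Col1a2 with the list of ligands, and of its 2 tested markers 1 passed, as lower in both clones. The part of the summed level in these values was not tested. The dystrophin complex and the enzymes that glycosylate dystroglycan had 5 of 19 tested members higher and 3 lower in both clones (42.1% in all), and 1 and 0 under the row block (5.26%). B3galnt2, which encodes a glycosyltransferase of that pathway, differed by -0.81 (adjusted p = 0.00128) and -0.70 (adjusted p = 0.00546), and its clone 3 call was lost under the row block (adjusted p = 0.117).

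**Figure D5:**
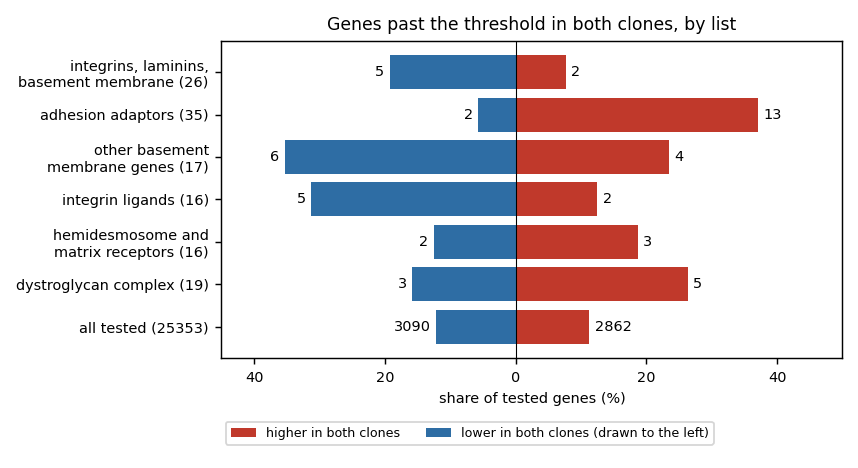
Share of tested genes, in percent, that were higher (right) or lower (left) in both clones, for the integrin, laminin and linker set, for 5 lists of related genes and for all 25353 tested, with counts beside the bars. Adhesion adaptors had 13 genes higher and 2 lower, and the set itself had 2 higher and 5 lower. With the slide row as a block, not drawn, these counts were 3 and 1 for the adaptors and 2 and 2 for the set. The lists were chosen with earlier results of these data known.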

How the data were processed

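Spot intensity was deposited by the authors as a background-corrected, linear processed signal; the submitters' processing notes name Agilent Feature Extraction 11.5.11. Spots marked non-uniform or as outliers (114 to 242 an array) were left out. Spots of a probe were averaged, and log2 values, computed here from that deposited intensity, were reduced by the array's 75th percentile over 56605 probes. Accessions were matched to RefSeq names (GRCm38.p6), which named 32994 probes. The file headers name an older build, so coordinates come from RefSeq alone. The brightest of a gene's probes stood for it.

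Tests used limma 3.58.1 in R 4.3.3 (one fit of 3 groups, empirical Bayes, two-sided, Benjamini-Hochberg over 25353 genes and unnamed transcripts, 5 residual and 3.38 prior degrees of freedom), so clone 3 borrows the spread of the other groups. The fit was tested on simulated data. The genes and lists were chosen with earlier results of these data known. Members with an absolute log2 difference of at least 1 are given in full, and from each related list up to 3 genes that passed in both clones with the largest mean change. Some genes that this rule selects are not reported by name. Alternatives were normexp background correction (offset 50, on median signals), quantile and median scaling, other filters, the mean of probes, a trended variance, the slide row, and each array left out.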

Additional observations from a re-analysis of the deposited data

Results flagged for a closer look

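Nid1 drew attention because it passed the test of clone 3 against clone 1, which it entered through clone 1 alone. That call held under 7 of 16 alternatives. The fitted log2 difference, clone 3 minus clone 1, was -2.46 (SE 0.264, adjusted p = 0.0174), and it rests on a probe that was well above background on the 3 clone 1 arrays and on no clone 3 or control array. Nid1 is thus given in the report by lower limits only. No group had 4 or more arrays, so single arrays were not examined as outliers within a group.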

How the results depend on the processing

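Of the genes at least 2-fold changed, Itga7 and Lama3 kept their direction and passed in both clones under every alternative run, and so did Itgb7 in clone 1. No call of the 26 genes changed sign, but Itga10, not called with its brightest probe, was reversed with the mean of all probes: -0.69 in clone 3 (adjusted p = 0.00725) and -0.38 for the mean of the clones (adjusted p = 0.0305). The smaller changes depend on the settings. The count of genes lower in clone 1, 5 as reported, was 3 with median scaling, 2 with the slide row as a block and 2 within row 1, and 3 to 6 with each array left out in turn. The count lower in clone 3, 7 as reported, was 4 with median scaling, 4 with no filter and 2 with the row block, and 3 to 7 with arrays left out; that of genes higher in clone 3, 2 as reported, was 1 to 2. The single difference between the clones fell to 0 calls with normexp, no filter, a filter on all 8 arrays (where Nid1 was not tested), the mean of probes, the row block and within row 2, and was 0 to 1 with arrays left out. For the mean of the clones the count lower was 7 as reported, 2 with the row block and 6 to 9 with arrays left out. The row block took the calls of all 25353 tested to 2062 higher and 2287 lower in clone 1 and to 997 and 1071 in clone 3, against 3716 and 4180, and 3362 and 4307, without it. The cause of these changes was not tested, except that the row block and the fits with fewer arrays have fewer residual degrees of freedom. No paired analysis was possible because the labels give the arrays no replicate numbers. A block for slide or scan was not run, since all arrays share 1 slide and 1 scan. Nid1 outside clone 1 and the 17 untested genes were at or near background.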
